A study of Danio rerio with 25 samples.

Results

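The peaks at transcript ends are the open-chromatin regions that the deposited peak annotation places at the end of a transcript, in the class it calls TTS, for transcription termination site. All 1656 peaks whose annotation starts with that word were taken, without regard to their counts, out of 61954 peaks in the set shared by every library (2.67%). Accessibility was measured by ATAC-seq, in which the transposase Tn5 cuts and tags DNA that is not wrapped in compact chromatin, so that the read count of a peak grows with how open it is in the cells of that library. The cells came from zebrafish hearts carrying transgenic reporters of the epicardium, and the comparisons ask how epicardial chromatin differs from that of the other heart cells, between larva and adult, and after injury.

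The 14 ATAC libraries form 6 groups, all purified by fluorescence-activated cell sorting. Adult epicardium was taken 3 days after cryoinjury (4 libraries) or 3 days after sham surgery (2 libraries) from fish with tcf21:BirA-mCherry. Untreated larvae at 5 days post fertilization gave epicardium and non-epicardium from fish with tcf21:H2B-Dendra2 (2 libraries each), and the same pair of populations from fish with tbx18:myr-Citrine (2 libraries each). RNA-seq of 11 further libraries used the 2 tcf21 lines alone: 3 libraries after cryoinjury and 2 after sham surgery by nuclear pulldown, and 3 each of sorted larval epicardium and non-epicardium. Every population is therefore defined by the promoter that drives its transgene, and adults and larvae carry different tcf21 constructs, so stage and construct cannot be told apart. The labels do not say whether replicates came from separate animals or pools, so all p-values measure the spread between these libraries only, which may be technical.

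The epicardium is the cell sheet that covers the heart; in zebrafish it is marked by the transcription factors Tcf21, Tbx18 and Wt1, and after injury it is activated and supplies cells and signals to the regenerating heart. Open chromatin away from promoters often marks enhancers, and a peak near the end of a transcript may be such an element, a promoter of the next gene or of a short gene, or a region opened by transcription. The annotation names for each peak both the transcript that ends there and the gene with the nearest transcription start, and these are not always the same gene. Below, a peak is called by the gene of the nearest start, and the gene that ends there is given where the files pair it and it differs.

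Library totals over all peaks ran between 755606 and 6248597 reads, of which 28636 to 146678 lay at transcript ends. The shallowest were 3 of the 4 tcf21 larval libraries, and in the shallowest of all (tcf21 epicardium library 2) 230 of the 1656 peaks stood at a count of 1, the lowest value in the table, which stands for 1 read or none. Levels are given as CPM, counts relative to a library's TMM-scaled total. A floor of 3 counts corresponds to between 0.539 and 4.51 CPM, depending on the library. The labelled larval populations carried most of their epicardial markers. The peaks of *wt1a* summed to a mean of 128 CPM in tcf21 epicardium against 9.98 CPM in tcf21 non-epicardium, and to 98.8 CPM in tbx18 epicardium against 12.6 CPM in tbx18 non-epicardium. Those of *tcf21*, *tbx18* and *wt1b* were likewise higher in epicardium in both pairs. Those of *aldh1a2* were higher in the tcf21 pair (354 against 171 CPM) but not in the tbx18 pair (298 CPM in epicardium, 277 to 320, against 329 CPM in non-epicardium, 315 to 344). All 3 erythroid markers (*hbbe2*, *hbae3* and *cahz*) were lower in the larval epicardium libraries of either reporter, at means of 0.357 to 41.8 CPM against 25.3 to 175 CPM in non-epicardium. The endothelial genes *cdh5* and *fli1a* had lower summed peaks in epicardium too, at means of 44.3 to 109 CPM against 86.8 to 328 CPM, whereas *kdrl* differed little in the tcf21 pair (84.6 against 85.2 CPM). The cardiomyocyte marker *myl7* was lower in epicardium with tcf21 (6.92 against 12.2 CPM) and tbx18 (11.3 against 17.3 CPM). *tnnt2a* was lower with tcf21 (5.05 against 18.9 CPM) but not with tbx18 (58.3 against 54.7 CPM). The leukocyte markers *ptprc* and *lcp1* had lower means in epicardium in both pairs, at 1.88 to 31.0 CPM against 9.15 to 38.2 CPM. Among adults the peaks of *tcf21* summed to 933 CPM after cryoinjury and 1105 CPM after sham surgery, against 495 CPM in tcf21 larval epicardium. Those of *wt1a* (49.3 and 71.4 CPM, against 128) and *wt1b* (55.4 and 54.9, against 89.8) had lower adult means. So did those of *aldh1a2* (167 and 199, against 354) and *tbx18* (130 and 150, against 173). *lcp1* stood at 57.5 and 49.7 CPM, against 31.0, and *ptprc* at 14.5 and 18.4, against 14.8. In these bulk samples fewer cells of a type and less accessibility per cell cannot be told apart.

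The 1656 peaks lay at the ends of 1628 transcripts, on all 25 chromosomes of the GRCz10 build. They were annotated to 1571 genes, of which 1489 held 1 such peak, 79 held 2 and 3 held more. Most were of the standard width of the peak set, 501 bases (1555 peaks, 93.9%). The transcript with the nearest start was also the one that ended there at 622 peaks. Where the files pair the ending transcript with a gene (1149 peaks), that gene was the annotated one at 777 peaks and another one at 372. Peaks at transcript ends had a median distance of 3635 bases to the nearest start, between that of promoter peaks (51 bases) and that of exon peaks (5328 bases). There were 395 upstream of that start and 1261 downstream of it.

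Among the classes listed next, peaks at transcript ends also had the lowest median GC content. The median GC fraction was 0.413 (quartiles 0.377 and 0.457) at transcript ends, against 0.421 in promoter peaks, 0.425 in intergenic peaks, 0.427 in intron peaks and 0.439 in exon peaks. The annotated genes included many without a standard gene name: 571 peaks (34.5%) belonged to genes with clone or placeholder names, against 23.7% of all peaks, and 946 (57.1%) to other named genes, against 70.5%. Small RNA genes accounted for 112 peaks (6.76%, against 5.46% of all peaks), among them 52 peaks at copies of 5S_rRNA, 23 at miRNA genes, 16 at copies of U1 and 7 at copies of U2. A further 27 peaks (1.63%, against 0.313% of all peaks) were annotated to the *pimr* family, zebrafish genes related to the Pim serine/threonine kinases that occur in many near-identical copies. These classes of gene were set up after values had been seen, and reads from near-identical copies may have been split or shared among them by the authors' mapping.

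The share of a library's reads that fell at transcript ends differed more between the larval reporter lines than between the larval populations. It was 3.19, 3.00, 2.85 and 2.74% in cryoinjured adults, 2.93 and 2.97% in sham adults, 3.56 and 3.79% in tcf21 epicardium, 2.68 and 3.44% in tcf21 non-epicardium, 2.13 and 2.02% in tbx18 epicardium, and 2.35 and 2.12% in tbx18 non-epicardium. All 4 tbx18 libraries lay below all 10 others, and the 2 tcf21 epicardium libraries were the highest. Depth differed between the lines as well, and neither its part nor that of the line was tested. Larval epicardium averaged 2.87 ± 0.930% and larval non-epicardium 2.64 ± 0.576% (SD, n = 4 each), a difference that did not pass an exact two-sided permutation test within reporters (p = 0.444, smallest possible 0.0556). Without tcf21 epicardium library 2 that difference was -0.0754 percentage points, against 0.230 with it. Cryoinjured and sham adults both averaged 2.95% (SD 0.194, n = 4, and 0.0308, n = 2; exact permutation p = 1). Adult epicardium lay below tcf21 larval epicardium (difference -0.725 percentage points), at 2.95 ± 0.151% (SD, n = 6) against 3.67 ± 0.163% (SD, n = 2), with an exact permutation p of 0.0357, the smallest that 28 arrangements allow.

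That difference between stages was smaller without the deepest peaks. With the 1% of peaks of the highest mean level taken out of the table it was -0.083 percentage points (exact permutation p = 0.214), at 2.77% in cryoinjured and 2.76% in sham adults against 2.85% in tcf21 epicardium. The exact p-values over all alternatives ran between 0.0357 and 0.214. With either tcf21 epicardium library left out the difference was -0.841 or -0.610, at an exact permutation p of 0.143, which is the smallest possible with 1 larval library and therefore could not pass.

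**Figure D1:**
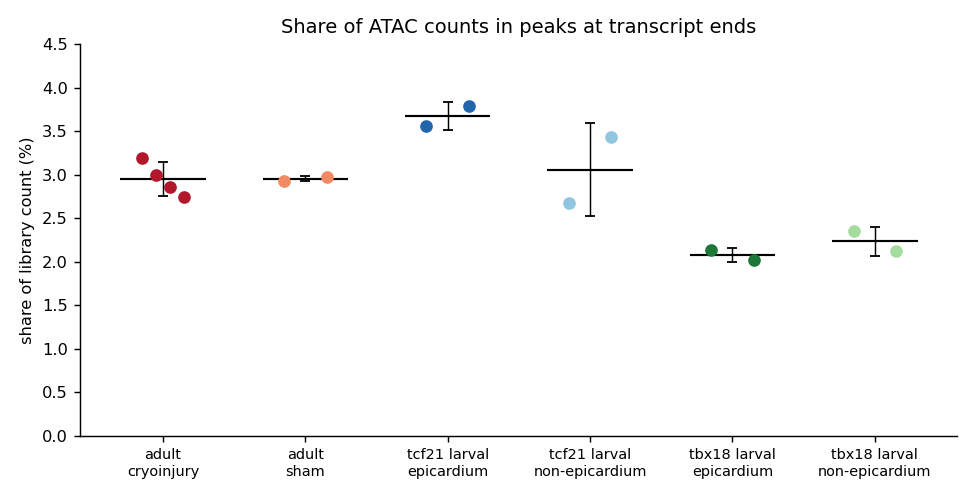
Share of each ATAC library's reads that fell in the 1656 peaks at transcript ends, in percent, for the 6 groups. Points are libraries, horizontal lines group means and bars 1 SD. The 4 tbx18 libraries sit between 2.02 and 2.35%, below every other library, and the tcf21 epicardium libraries at 3.56 and 3.79% are the highest.

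Compared with other peak classes, transcript ends were less open than promoters in every library. Their mean log2 CPM was lower than that of promoter peaks (difference -0.77 ± 0.35, SD over 14 libraries, 0 of 14 positive), and the exact sign-flip permutation test over libraries gave p = 0.000122, the smallest it can give (adjusted over 4 classes, 0.000244). It was higher than that of exon peaks in 14 of 14 libraries (difference 0.26 ± 0.07, exact adjusted p = 0.000244). Against intron peaks (0.11 ± 0.25, 10 of 14 libraries, exact adjusted p = 0.173) and intergenic peaks (0.05 ± 0.21, 9 of 14 libraries, exact adjusted p = 0.352) no difference passed the test. With peaks matched on GC content the difference from intron peaks became 0.15 (exact adjusted p = 0.0231, between 0.0231 and 0.429 over the alternatives). These tests take the 14 libraries as separate units. The libraries are replicates within 6 groups and measure the same peaks, so the p-values are smaller than such a design warrants.

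The sign of the difference from intron peaks followed the line. It was 0.27 in cryoinjured adults, 0.36 in sham adults, 0.14 in tcf21 epicardium and 0.20 in tcf21 non-epicardium, but -0.38 in tbx18 epicardium and -0.10 in tbx18 non-epicardium. The median peak at a transcript end stood at 10.5 CPM in cryoinjured adults, 10.6 in sham adults, 9.27 in tcf21 epicardium, 9.32 in tcf21 non-epicardium, 5.77 in tbx18 epicardium and 7.10 CPM in tbx18 non-epicardium. Over all peaks the corresponding medians were 9.89, 9.78, 9.54, 9.41, 8.60 and 8.54 CPM, so the 2 tbx18 groups, lowest in either set, stood further below the rest at transcript ends.

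Accessibility at transcript ends was higher at higher GC content, most of all in tcf21 epicardium. In the quartile of peaks with the lowest GC (420 peaks, GC fraction up to 0.377) the median level was 10.3 CPM in cryoinjured adults, 10.2 in sham adults, 6.57 in tcf21 epicardium, 7.61 in tcf21 non-epicardium, 4.80 in tbx18 epicardium and 6.01 CPM in tbx18 non-epicardium. In the quartile with the highest GC (414 peaks, GC fraction of at least 0.459) it was 11.5, 11.7, 14.9, 13.4, 6.93 and 8.39 CPM in the same groups. Both adult groups differed little along GC, while the median of tcf21 epicardium was higher in the top quartile by the largest amount and passed that of the adults.

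The mean log2 CPM of the highest GC quartile minus that of the lowest was 0.34, 0.15, 0.37 and 0.22 in the cryoinjured libraries and 0.39 and 0.37 in the sham libraries. It was 1.11 and 1.24 in tcf21 epicardium, 0.60 and 1.04 in tcf21 non-epicardium, 0.74 and 0.66 in tbx18 epicardium, and 0.67 and 0.56 in tbx18 non-epicardium. No adult library reached any larval one. The largest differences, 1.24, 1.11 and 1.04, were in the shallowest libraries, at 755606, 941610 and 913324 reads. The remaining tcf21 larval library, non-epicardium library 1 with 2273259 reads, had 0.60. Cryoinjury library 1, the next in depth at 1070024 reads, had 0.34. The part of depth in these differences was not tested. Over all peaks the rank correlation of GC with CPM ran between 0.048 and 0.113 in adult libraries and between 0.167 and 0.262 in larval ones. The split between adult and larval libraries was thus not particular to transcript ends, where the correlation ran between 0.0166 and 0.251 by library. Both are descriptions over peaks that share their library. Distance to the nearest start moved with GC content and level: the 242 peaks closer than 1000 bases had a median GC fraction of 0.449 and, in each of the 6 groups, the highest median level of any distance class (15.3 CPM in tcf21 epicardium, 8.83 CPM in tbx18 epicardium).

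**Figure D2:**
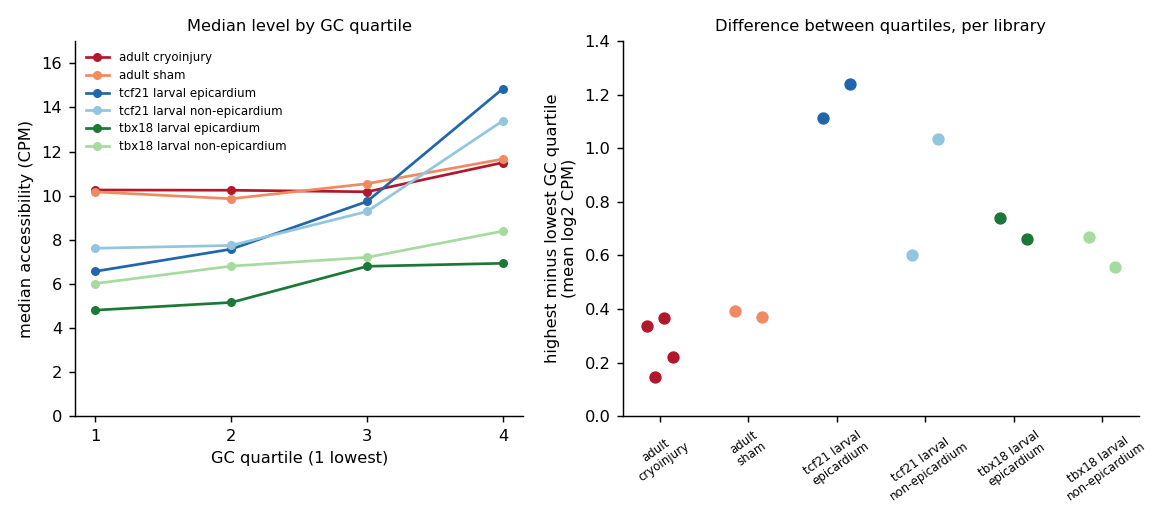
Level of peaks at transcript ends by GC content. Left, median CPM per group (vertical axis) in the 4 quartiles of the peaks' GC fraction, from lowest to highest; right, for each library, the mean log2 CPM of the highest quartile minus that of the lowest. The adult libraries lie between 0.15 and 0.39, the larval ones between 0.56 and 1.24.

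Between epicardium and non-epicardium of tcf21 larvae, 81 of 1651 tested peaks at transcript ends were higher in epicardium and 84 lower (edgeR quasi-likelihood test, adjusted p under 0.05), or 4.91% and 5.09%. Over all 61883 tested peaks 13.2% were called (6.69% higher, 6.55% lower), a larger share than at transcript ends (9.99%). The median log2 fold change was 0.09 at transcript ends and -0.01 over all peaks. Most single peaks described below were picked by a rule that required the libraries of the compared groups not to overlap, so that their separation describes the choice and adds no support. At the other peaks, separation between so few libraries is likewise given as a description and adds no support to a call. The number of calls was 84 without tcf21 epicardium library 1, 94 without epicardium library 2 and 57 without non-epicardium library 1.

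The peak at the end of *snai1b*, whose zinc finger product represses epithelial genes as cells leave an epithelium, was among the most open of the 47 peaks called higher in epicardium by both reporters. At this peak (chr23:2563017-2563517, GC fraction 0.501) the level was 98.4 and 177 CPM in tcf21 epicardium, against 15.5 and 12.8 CPM in tcf21 non-epicardium (log2 fold change 3.25 ± 0.44 (SE), adjusted p = 1.58e-06). It was 111 and 100.1 CPM in tbx18 epicardium, against 16.5 and 16.3 CPM in tbx18 non-epicardium (log2 fold change 2.68 ± 0.40 (SE), adjusted p = 2.99e-06). Every epicardial library exceeded every non-epicardial one, and the replicates of tbx18 lay closer together than those of tcf21. Its RNA, a readout independent of the peaks, stood at 19.1 ± 21.7 CPM in larval epicardium and 2.14 ± 0.592 CPM in larval non-epicardium (SD, n = 3 each; edgeR log2 fold change 3.15, adjusted p = 0.0258).

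A peak (chr21:19595801-19596301) annotated to *fgf10a*, which encodes a secreted fibroblast growth factor, showed the same order. It had 53.7 and 63.1 CPM in tcf21 epicardium against 4.99 and 7.0 CPM in tcf21 non-epicardium (log2 fold change 3.33 ± 0.53 (SE), adjusted p = 2e-05). It had 86.9 and 77.5 CPM in tbx18 epicardium against 8.81 and 11.6 CPM in tbx18 non-epicardium (log2 fold change 3.04 ± 0.44 (SE), adjusted p = 1.8e-06). The groups did not overlap in either pair. The *fgf10a* RNA did not follow at a level the test could call, at 6.67 ± 8.44 CPM in epicardium and 3.97 ± 2.25 CPM in non-epicardium (SD, n = 3 each; edgeR log2 fold change 0.75, adjusted p = 0.72).

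The peak at the end of *rgs19*, a regulator of G-protein signalling, differed most in the tbx18 pair. It held 43.6 and 60.1 CPM in tcf21 epicardium against 4.99 and 4.67 CPM in tcf21 non-epicardium (log2 fold change 3.39 ± 0.58 (SE), adjusted p = 5.92e-05). In tbx18 epicardium it held 40.2 and 48.2 CPM, and in tbx18 non-epicardium both libraries stood at the lowest listed count (log2 fold change 7.08 ± 0.74 (SE), adjusted p = 4.02e-09), which makes it at least 28-fold higher against a floor of 3 counts per library, taken in the shallower library. At *btbd17b*, a gene of the BTB-domain family, the peak had 85.0 and 105 CPM in tcf21 epicardium against 5.49 and 4.67 CPM in tcf21 non-epicardium (log2 fold change 4.18 ± 0.53 (SE), adjusted p = 4.01e-07).

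Of the other named peaks higher in tcf21 epicardium, those of *znf330* (at the end of *inpp4b*, an inositol polyphosphate phosphatase; log2 fold change 4.63 ± 0.76, SE), *asb3* (3.15 ± 0.67) and *tbx22*, a T-box transcription factor (4.56 ± 0.91), were higher in tbx18 epicardium too. Their changes there were 3.85 ± 0.63, 5.34 ± 0.74 and 3.88 ± 0.65. Those of *TMEM184B* (2 of 3) and *tmem184bb*, 2 genes of a family of membrane proteins on chromosome 3 whose like copies may share reads, changed by 5.18 ± 0.76 and 4.19 ± 0.56 in the tcf21 pair. The call at *tbx22* in the tcf21 pair was lost without non-epicardium library 1 (3.91, adjusted p = 0.0515; 0.000363 to 0.0515 over the alternatives). That at *pitx3*, a homeobox gene (3.17 ± 0.85), was lost without the same library (3.72, adjusted p = 0.0942) or without epicardium library 2 (2.96, adjusted p = 0.0627; 0.00565 to 0.0942 over the alternatives).

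Among the peaks lower in epicardium, a pair of peaks at the end of *igfbp1b*, an insulin-like growth factor binding protein gene, and annotated to *znfl2a*, were lower with both reporters. The one at chr2:134939-135439 had 13.4 and 9.01 CPM in tcf21 epicardium against 178 and 113 CPM in tcf21 non-epicardium (log2 fold change -3.67 ± 0.54 (SE), adjusted p = 5.9e-06). It had 1.41 and 2.57 CPM in tbx18 epicardium against 54.7 and 63.8 CPM in tbx18 non-epicardium (log2 fold change -5.0 ± 0.58 (SE), adjusted p = 3.27e-08). Its neighbour at chr2:134315-134815 changed by -4.21 ± 0.66 (SE) in the tcf21 pair and -4.07 ± 0.62 in the tbx18 pair. No epicardial library reached a non-epicardial one at either peak. The RNA of *znfl2a* was 1.24 ± 1.27 CPM in larval epicardium and 1748 ± 344 CPM in larval non-epicardium (SD, n = 3 each; edgeR log2 fold change -10.40, adjusted p = 1.03e-06).

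A peak of *slc25a1a*, the mitochondrial citrate carrier, at the end of *nle1*, stood at 2.24 and 7.51 CPM in tcf21 epicardium against 126 and 43.2 CPM in tcf21 non-epicardium (log2 fold change -4.22 ± 0.67 (SE), adjusted p = 1.73e-05). At *cap1*, whose product binds actin, both tcf21 epicardium libraries were at the lowest listed count against 80.3 and 42.0 CPM in tcf21 non-epicardium (log2 fold change -5.54 ± 0.80 (SE), adjusted p = 4.53e-06), at least 13.6-fold lower by the floor of 3 counts. The same direction held in the tbx18 pair at *slc25a1a* (-5.18 ± 0.69, SE) and *cap1* (-4.17 ± 0.68). Also lower by both reporters were the peaks of *sepw2b*, a selenoprotein gene (-4.31 ± 0.71 in the tcf21 pair and -6.19 ± 0.80 in the tbx18 pair), *atf5a*, a bZIP transcription factor (-3.58 ± 0.64 and -5.03 ± 0.65), *ccng2*, a cyclin (-4.23 ± 0.92 and -5.14 ± 0.88), *buc*, which organises germ plasm in the oocyte (-4.5 ± 0.74 and -2.41 ± 0.51), and *tfdp2*, a partner of E2F factors (-4.16 ± 0.78 and -4.65 ± 0.75). The RNA of *tfdp2* was lower as well, at 13.4 ± 11.6 CPM in epicardium and 156 ± 66.1 CPM in non-epicardium (SD, n = 3 each; edgeR log2 fold change -3.54, adjusted p = 0.00881). RNA of the other annotated genes of this paragraph was not called between larval populations (edgeR adjusted p 0.0663 to 0.834). Its log2 fold change was negative at *sepw2b* (-3.18), *slc25a1a* (-1.38), *atf5a* (-1.32) and *ccng2* (-0.17), and positive at *buc* (1.03) and *cap1* (0.51).

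At *hbbe1.1*, an embryonic beta-globin gene, the peak held 2.24 and 1.5 CPM in tcf21 epicardium against 35.9 and 8.17 CPM in tcf21 non-epicardium (log2 fold change -3.56 ± 0.93 (SE), adjusted p = 0.00703). It held the lowest listed count in both tbx18 epicardium libraries against 7.01 and 14.2 CPM in tbx18 non-epicardium (log2 fold change -4.89 ± 0.97 (SE), adjusted p = 0.000167). The tcf21 call was lost without epicardium library 1 (-3.79, adjusted p = 0.0825), epicardium library 2 (-3.18, adjusted p = 0.0962) or non-epicardium library 1 (-2.04, adjusted p = 0.344; 0.00281 to 0.344 over the alternatives). Reads may be shared with neighbouring globin copies. Its RNA stood at 3.24 ± 0.912 CPM in epicardium and 4507 ± 661 CPM in non-epicardium (SD, n = 3 each; edgeR log2 fold change -10.43, adjusted p = 4.29e-08). The 3 erythroid markers moved the same way, as given above, and their part in the peak's difference was not tested.

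At the end of *sox7*, an endothelial transcription factor, the level was 3.35 and 13.5 CPM in tcf21 epicardium against 56.4 and 38.5 CPM in tcf21 non-epicardium (log2 fold change -2.60 ± 0.54 (SE), adjusted p = 0.000726). It had 10.9 and 11.3 CPM in tbx18 epicardium against 102 and 141 CPM in tbx18 non-epicardium (log2 fold change -3.45 ± 0.44 (SE), adjusted p = 1.94e-07). The groups did not overlap in either pair. The tcf21 call was lost without epicardium library 1 (-1.75, adjusted p = 0.0743; 0.000129 to 0.0743 over the alternatives). RNA of *sox7* was lower in epicardium too, at 8.04 ± 4.16 CPM against 112 ± 48.2 CPM in non-epicardium (SD, n = 3 each; edgeR log2 fold change -3.80, adjusted p = 0.000201). The peak of *hey2*, a Notch target of the ventricle and arteries, had 13.4 and 22.5 CPM in tcf21 epicardium against 51.9 and 59.5 CPM in tcf21 non-epicardium (log2 fold change -1.65 ± 0.44 (SE), adjusted p = 0.00842), a call lost without epicardium library 1 (-1.23, adjusted p = 0.159; 0.00283 to 0.159 over the alternatives). Of the 3 endothelial markers 2, *cdh5* and *fli1a*, had lower summed peaks in tcf21 epicardium. Their RNA was lower in larval epicardium too (edgeR log2 fold change -4.03 and -3.96, adjusted p = 8.19e-05 and 0.00148). RNA of *kdrl* was higher there, at 125 ± 44.2 CPM against 13.8 ± 3.68 CPM in non-epicardium (SD, n = 3 each, edgeR log2 fold change 3.17, adjusted p = 0.000336). The part of the 3 markers in these peak differences was not tested.

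In the tbx18 pair 168 peaks at transcript ends were higher in epicardium and 268 lower (10.2% and 16.2% of 1651). Over all peaks 26.9% were called by the same edgeR test, 13.8% higher and 13.1% lower, so the total share at transcript ends (26.4%) was near that of all peaks while its balance was not. Other classes had 6.62% (promoter), 15.7% (exon), 15.3% (intron) and 13.8% (intergenic) of peaks lower. Their shares of peaks higher were 3.57%, 14.2%, 16.7% and 17.9% in that order. Lower calls thus outnumbered higher ones among promoter and exon peaks too. Of the calls, 35% were higher among promoter peaks and 38.5% at transcript ends. The median log2 fold change at transcript ends was -0.35, against -0.34 in promoter peaks, -0.28 in exon peaks and -0.16 over all peaks. The count of calls was 436 with all libraries, 260 without tbx18 epicardium library 1 and 232 without tbx18 non-epicardium library 1, the deeper library of each group. The balance depended on the libraries fitted. With the compared groups alone 205 peaks at transcript ends were higher and 223 lower, so that 47.9% of calls were higher. Over all 56114 peaks tested that way 10528 were higher and 8056 lower. By kind of gene, 0 of 27 *pimr* peaks were higher and 12 lower, and of 570 peaks of clone-named genes 41 were higher and 108 lower. Of 112 small RNA peaks 9 were higher and 13 lower, and of 942 peaks of other named genes 118 were higher and 135 lower. Lower calls thus outnumbered higher ones most among *pimr* and clone-named peaks.

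**Figure D3:**
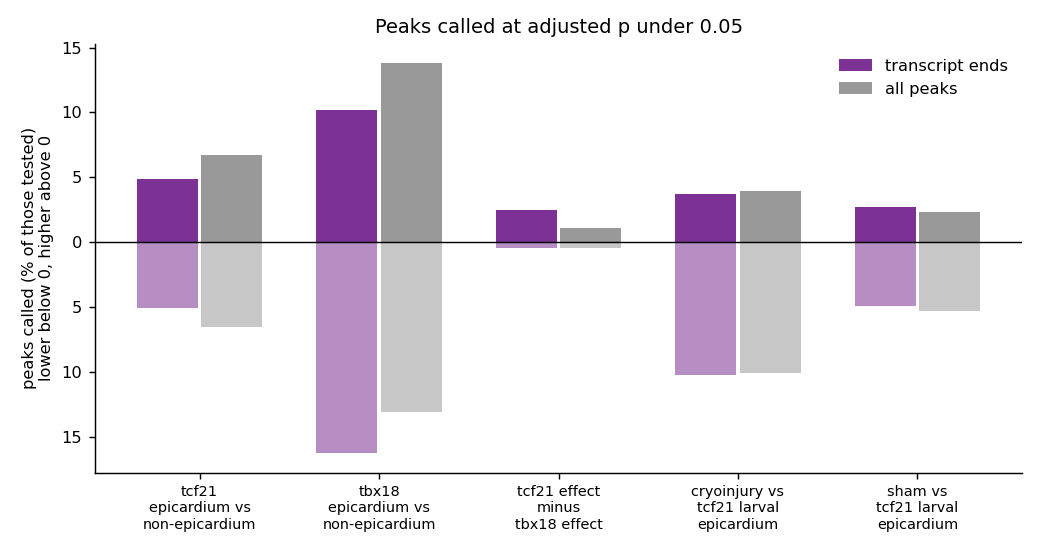
Percent of tested peaks called higher (above 0) and lower (below 0) by edgeR at an adjusted p under 0.05, at transcript ends and over all peaks, for 5 comparisons. At transcript ends the tbx18 pair has 10.2% higher and 16.2% lower, against 13.8% and 13.1% over all peaks, and no peak at a transcript end was called between cryoinjured and sham adults.

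The end of *irx1b*, an Iroquois homeobox gene, was more open in tbx18 epicardium, at 21.5 and 23.1 CPM against 1.44 and 1.05 CPM in tbx18 non-epicardium (log2 fold change 4.03 ± 0.63 (SE), adjusted p = 5.41e-06). In the tcf21 pair its values were 15.7 and 15 CPM in epicardium and 6.49 and 4.67 CPM in non-epicardium, which did not pass the test (log2 fold change 1.4 ± 0.63 (SE), adjusted p = 0.141). The difference between reporters did not pass it either (log2 fold change -2.63 ± 0.89 (SE), adjusted p = 0.111). Peaks of *elmo2*, needed for cell engulfment and migration (4.46 ± 0.69, SE), *zfyve9b*, an anchor for Smad proteins in TGF-beta signalling (4.44 ± 0.58), *trim63b*, a muscle ubiquitin ligase (3.65 ± 0.57), and *slc47a1*, an organic cation exporter (3.38 ± 0.65), also rose with tbx18, and were higher with tcf21 too (1.96 ± 0.65, 2.96 ± 0.57, 2.26 ± 0.55 and 2.39 ± 0.68). In the tcf21 pair the *elmo2* call was lost without epicardium library 2 (1.07, adjusted p = 0.459) or non-epicardium library 1 (1.44, adjusted p = 0.346), and with the compared groups alone (1.89, adjusted p = 0.0593; 0.0127 to 0.459 over the alternatives). That of *slc47a1* was lost without epicardium library 2 (2.2, adjusted p = 0.0904) or non-epicardium library 2 (1.84, adjusted p = 0.108; 0.0087 to 0.108), and that of *trim63b* without non-epicardium library 1 (1.74, adjusted p = 0.132; 0.000943 to 0.132). RNA of *trim63b* went the other way between larval populations (edgeR log2 fold change -2.44, adjusted p = 0.032).

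Among signalling genes, both peaks annotated to *wnt5b*, a secreted Wnt ligand, were higher in tbx18 epicardium. The nearer one to the start (chr4:8516349-8516849, at the end of *ERC1*) had 22.9 and 16.4 CPM in tbx18 epicardium against 2.34 and 1.05 CPM in tbx18 non-epicardium (log2 fold change 3.36 ± 0.67 (SE), adjusted p = 0.000171). The farther one had 34.4 and 29.3 CPM against 6.65 and 7.90 CPM in tbx18 non-epicardium (log2 fold change 2.15 ± 0.52 (SE), adjusted p = 0.00177). Neither passed in the tcf21 pair (0.95 ± 0.67 and 1.63 ± 0.63, SE; adjusted p = 0.378 and 0.079). A peak of the receptor gene *notch1a* was lower, at 0.805 and 1.03 CPM in tbx18 epicardium against 14.7 and 15.8 CPM in tbx18 non-epicardium (log2 fold change -4.04 ± 0.77 (SE), adjusted p = 0.000111). Epicardial and non-epicardial libraries did not overlap at any of these peaks in the tbx18 pair. At *rdh10a*, which makes retinaldehyde for retinoic acid synthesis, the peak had 42.7 and 49.8 CPM in tbx18 epicardium against 11.5 and 13.2 CPM in tbx18 non-epicardium (log2 fold change 1.91 ± 0.48 (SE), adjusted p = 0.00257). That call was lost without tbx18 non-epicardium library 1 (1.80, adjusted p = 0.0527; 0.000118 to 0.0527 over the alternatives).

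The reporters shared part of their calls. Of the peaks higher in epicardium, 47 were called by both, which is 58.0% of the 81 called with tcf21 and 28% of the 168 called with tbx18. Of those lower, 52 were shared, 61.9% of the 84 called with tcf21 and 19.4% of the 268 called with tbx18. Over all peaks the shared shares were 69.5% and 33.8% for higher calls and 48.4% and 24.3% for lower ones. Another 6 of the 81 peaks higher with tcf21 were lower with tbx18, against 59 of 4140 over all peaks. The rank correlation of the log2 fold changes was 0.299 over 1651 peaks at transcript ends and 0.461 over all peaks, as a description over peaks that share the libraries' depth.

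**Figure D4:**
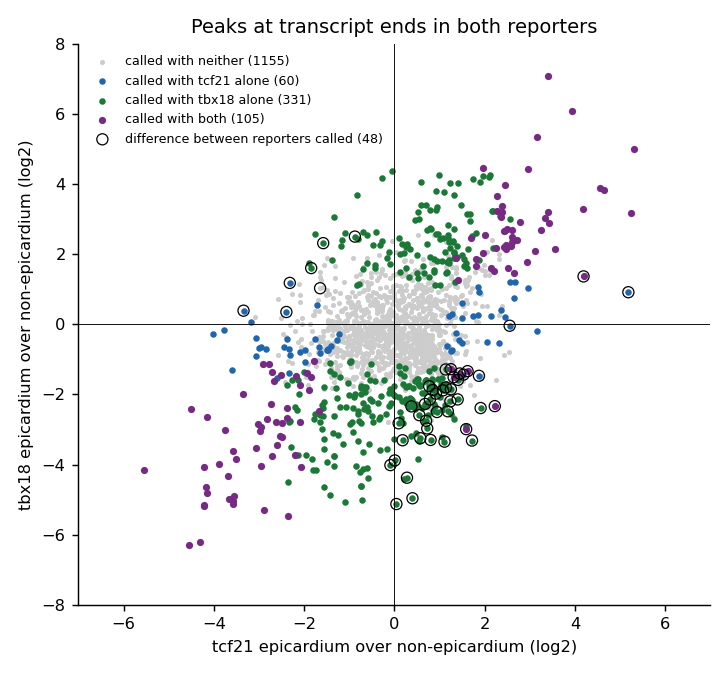
Effect of epicardium relative to non-epicardium (log2) at the 1651 tested peaks at transcript ends, tcf21 pair on the horizontal and tbx18 pair on the vertical axis. Colours mark peaks called in neither pair (1155), in the tcf21 pair alone (60), in the tbx18 pair alone (331) or in both (105), and circles the 48 peaks whose effects differed between reporters.

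The epicardium effect itself differed between reporters at 48 peaks at transcript ends by edgeR's interaction test, 41 with a positive and 7 with a negative difference of the signed effects, tcf21 minus tbx18 (2.48% and 0.424%, against 1.1% and 0.409% of all peaks, and 1.51% in either direction). The median interaction was 0.24 at transcript ends, 0.26 in exon peaks and -0.01 over all peaks. The 41 were 22 peaks of clone-named genes, 12 of other named genes, 5 of *pimr* genes and 2 of small RNA genes. The count depended on the libraries used: it was 1 without tcf21 epicardium library 1, 28 without library 2, 4 without tcf21 non-epicardium library 1, 9 and 14 without tbx18 epicardium library 1 or 2, and 3 without tbx18 non-epicardium library 1.

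At *c1qtnf1*, a C1q/TNF-related secreted protein gene, 1 of 2 peaks (at the end of *rbfox3a*) had 47.0 and 31.5 CPM in tcf21 epicardium against 12.5 and 14 CPM in tcf21 non-epicardium. It had 0.201 and 1.54 CPM in tbx18 epicardium, both at or under the floor of 3 counts, against 7.01 and 2.63 CPM in tbx18 non-epicardium. The interaction was 4.58 ± 0.93 on the log2 scale (SE, edgeR adjusted p = 0.00974). The largest in the other direction was at *cfap126*, a cilium gene (at the end of *b4galt3*), with 1.12 and 4.51 CPM in tcf21 epicardium against 8.48 and 7.0 CPM in tcf21 non-epicardium, and 30.2 and 41.1 CPM in tbx18 epicardium against 6.83 and 7.38 CPM in tbx18 non-epicardium (-3.89 ± 1.07, adjusted p = 0.0484). Both tcf21 epicardium libraries were at or under the floor of 3 counts there, so the sizes of both interactions are uncertain. These 2 calls, like those of *syne1b*, *TMEM184B* (2 of 3), *rras2*, *ANO7*, *ubtf*, *ITPRIPL2*, *zdhhc18b* and *calca*, were each lost without at least 1 library. With the compared groups alone both were lost as well, and that of *cfap126* also with DESeq2 size factors, total count scaling, halved counts and DESeq2. The adjusted p ran over 0.00388 to 0.199 at *c1qtnf1* and over 0.0429 to 0.229 at *cfap126* among the alternatives.

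Adult epicardium differed from tcf21 larval epicardium mostly by peaks that were less open in the adult. After cryoinjury 61 peaks at transcript ends were higher than in tcf21 larval epicardium and 169 lower by edgeR, 3.69% and 10.2% of 1651. Over all peaks 14% were called, 3.98% higher and 10.1% lower. After sham surgery 45 were higher and 81 lower, 2.73% and 4.91%. Over all peaks 7.64% were called, 2.34% higher and 5.3% lower. Both comparisons share the larval libraries with each other and with the tcf21 pair. The balance depended on scaling. With libraries scaled by total count, which shifts the median of all peaks in log2 fold change to 0.41 (cryoinjury) and 0.27 (sham) against 0.07 and 0.03 with TMM, 136 were higher and 91 lower after cryoinjury, or 59.9% of calls higher against 26.5% with TMM. After sham surgery 73 were then higher and 43 lower, 62.9% against 35.7%. With tcf21 larval epicardium library 1 or 2 left out the calls numbered 118 and 116 for cryoinjury and 72 and 56 for sham, and 46 and 52 for sham without sham library 1 or 2.

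GC content ordered these calls. After cryoinjury, 97 of 414 peaks of the highest GC quartile were lower than in tcf21 larval epicardium (23.4%) and 8 higher, whereas of 416 tested peaks in the lowest quartile 15 were lower (3.61%) and 22 higher (5.29%). All peaks within the same GC ranges had a like order, with 18.7% lower and 2.14% higher in the highest range and 3.96% lower and 6.09% higher in the lowest. After sham surgery the highest quartile had 45 lower and 5 higher peaks (10.9% and 1.21%) and the lowest 10 lower and 15 higher (2.40% and 3.61%). Over all peaks those shares were 9.70% and 1.52% in the highest range and 2.67% and 2.66% in the lowest. With a per-library offset for GC the cryoinjury calls became 45 lower and 16 higher in the highest quartile, and 36 lower and 10 higher in the lowest, shares of 10.9% and 8.65% lower. The sham calls became 18 lower and 8 higher in the highest quartile, and 21 lower and 5 higher in the lowest. Those are shares of 4.35% and 5.05% lower, so the order of lower calls along GC did not hold there. Whether GC content or a feature that goes with it sets these differences was not tested.

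Among the adult gains were peaks downstream of *tcf21* itself, the transcription factor that marks the epicardium. The peak 2140 bases downstream of its start, at the end of the gene (chr23:31626775-31627275), had 173, 113, 87.2 and 114 CPM in cryoinjured adults and 92.8 and 119.6 CPM in sham adults, against 14.5 and 24.0 CPM in tcf21 larval epicardium (cryoinjury log2 fold change 2.67 ± 0.43 (SE), adjusted p = 1.33e-05; sham log2 fold change 2.48 ± 0.46 (SE), adjusted p = 0.000398). The peak 6168 bases downstream had 179.9, 131, 112 and 109.9 CPM in cryoinjured and 124 and 139.9 CPM in sham adults, against 29.1 and 36 CPM in tcf21 larval epicardium (cryoinjury log2 fold change 2.03 ± 0.40 (SE), adjusted p = 0.000286; sham log2 fold change 2.02 ± 0.43 (SE), adjusted p = 0.00201). All 6 adult libraries were above both larval ones at either peak. The RNA of *tcf21* did not differ in the same direction, at 127 ± 15.1 CPM after cryoinjury (n = 3) and 79.9 ± 66.4 CPM after sham surgery (n = 2), against 230.5 ± 122 CPM in larval epicardium (SD, n = 3; cryoinjury edgeR log2 fold change -0.86, adjusted p = 0.27; sham log2 fold change -1.53, adjusted p = 0.0849). The *wt1b* peak went the other way and was called lower after cryoinjury than in tcf21 larval epicardium (edgeR adjusted p = 0.0184), but not after sham surgery. That call was lost with total count scaling, halved counts, the replicate block or either larval library left out. RNA of *wt1b* was lower too (cryoinjury edgeR log2 fold change -3.52, adjusted p = 0.00631, and sham -4.05, adjusted p = 0.0132). Stage and the tcf21 construct cannot be told apart here.

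Between larval epicardium and non-epicardium the farther of the *tcf21* peaks passed the test with tcf21 (29.1 and 36 CPM in epicardium against 14.5 and 7.0 CPM in non-epicardium; log2 fold change 1.49 ± 0.49 (SE), adjusted p = 0.0343) and the nearer did not (log2 fold change 1.0 ± 0.53 (SE), adjusted p = 0.218). That call was lost without any of the 4 tcf21 libraries, with adjusted p = 0.0538 without epicardium library 1, 0.105 without epicardium library 2, 0.0567 without non-epicardium library 1 and 0.164 without non-epicardium library 2 (0.0165 to 0.164 over the alternatives). It was also lost with halved counts (1.49, adjusted p = 0.0584) and with the compared groups alone (1.48, adjusted p = 0.0816). Neither passed with tbx18 (farther 0.60 ± 0.43, nearer -0.30 ± 0.52, SE). The *tcf21* RNA was 230.5 ± 122 CPM in larval epicardium and 0.329 ± 0.314 CPM in larval non-epicardium (SD, n = 3 each; edgeR log2 fold change 9.39, adjusted p = 1.09e-06). The other epicardial gene with a peak at a transcript end, *wt1b*, had 6.44 and 3.08 CPM in tbx18 epicardium against 0.539 and 0.527 CPM in tbx18 non-epicardium (log2 fold change 3.10 ± 0.92 (SE), adjusted p = 0.00995). Both tbx18 non-epicardium libraries were at or under the floor of 3 counts at this peak, so the size of its change is uncertain. Its call was lost without tbx18 epicardium library 1 (2.41, adjusted p = 0.154) or non-epicardium library 1 (3.11, adjusted p = 0.122; 0.00693 to 0.154 over the alternatives).

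Other peaks were higher in adults against a larval level at the floor of detection. At the end of *ash1l*, a histone methyltransferase gene, the adult libraries held 22.1, 12.2, 11.7 and 16.1 CPM after cryoinjury and 18.4 and 24.6 CPM after sham surgery, while both tcf21 larval epicardium libraries were at the lowest listed count (at least 3.44-fold and 4.78-fold higher; adjusted p = 0.00348 and 0.00292). Without tcf21 larval epicardium library 1 both calls were lost (cryoinjury 3.26, adjusted p = 0.0801; sham 3.71, adjusted p = 0.0634; 0.00156 to 0.0801 and 0.00184 to 0.0634 over the alternatives). Its RNA was 327 ± 43.0 CPM after cryoinjury (n = 3) and 311 ± 144 CPM after sham surgery (n = 2), against 25.7 ± 2.56 CPM in larval epicardium (SD, n = 3; cryoinjury edgeR log2 fold change 3.67, adjusted p = 1.78e-05), with purification by nuclear pulldown in adults and sorting in larvae. Peaks of *mhc1zca*, a class I MHC gene (36.2, 23.1, 20.7 and 18.5 CPM after cryoinjury, 20.8 and 29.0 CPM after sham surgery and 1.12 and 3.00 CPM in tcf21 larval epicardium), and of the miRNA gene *dre-mir-29b-1* (28.2, 21.8, 18.0 and 17.5 CPM after cryoinjury, 31.7 and 15.9 CPM after sham surgery and 2.24 and 1.5 CPM in tcf21 larval epicardium), were higher too. The first was lost without larval library 1 in either comparison (cryoinjury 2.94, adjusted p = 0.0747; sham 2.94, adjusted p = 0.112; 0.000155 to 0.0747 and 0.00147 to 0.112 over the alternatives). The second was lost without larval library 2 after cryoinjury (3.11, adjusted p = 0.0583; 0.000361 to 0.0583 over the alternatives). After sham surgery it was lost without larval library 1 (3.90, adjusted p = 0.0584) or 2 (3.29, adjusted p = 0.0669) or sham library 1 (3.02, adjusted p = 0.0845; 0.00271 to 0.0845).

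Among the peaks lower in adults, that of *mfap2*, a component of elastic microfibrils, at the end of *sdhb*, stood at 13.2, 6.98, 15 and 13.6 CPM after cryoinjury and 23.9 and 18.1 CPM after sham surgery, against 97.3 and 102 CPM in tcf21 larval epicardium (cryoinjury log2 fold change -3.02 ± 0.34 (SE), adjusted p = 2.45e-08; sham log2 fold change -2.23 ± 0.41 (SE), adjusted p = 0.000489). No adult library came near a larval one. It was also higher in epicardium than in non-epicardium of tcf21 larvae (log2 fold change 2.66 ± 0.44 (SE), adjusted p = 3.41e-05). Its RNA was 56.8 ± 24.8 CPM after cryoinjury (n = 3) and 12.4 ± 13.9 CPM after sham surgery (n = 2), against 701 ± 379 CPM in larval epicardium (SD, n = 3; cryoinjury edgeR log2 fold change -3.62, adjusted p = 0.000361). The *btbd17b* and *rgs19* peaks named above were lower in adults, with log2 fold changes of -3.45 ± 0.37 and -3.12 ± 0.43 (SE) after cryoinjury and -3.52 ± 0.47 and -2.62 ± 0.52 after sham surgery. That of *cyp1c2*, a cytochrome P450 gene, had 8.82, 9.16, 6.34 and 4.73 CPM after cryoinjury and 7.85 and 9.42 CPM after sham surgery, against 52.6 and 51.1 CPM in tcf21 larval epicardium (cryoinjury log2 fold change -2.89 ± 0.39 (SE), adjusted p = 8.5e-07; sham log2 fold change -2.60 ± 0.48 (SE), adjusted p = 0.000452).

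The peak of *igf2bp1*, an RNA-binding protein gene of developing tissues, was lower in adults and did not pass the test between the larval tcf21 populations (-0.08 ± 0.46, SE). It had 5.29, 1.31, 4.67 and 3.70 CPM after cryoinjury, against 22.4 and 46.6 CPM in tcf21 epicardium (log2 fold change -3.20 ± 0.45 (SE), adjusted p = 1.29e-06). In tcf21 non-epicardium it had 34.4 and 37.3 CPM. Its RNA was lower as well after cryoinjury (6.07 ± 2.49 CPM, against 65.7 ± 10.5 CPM in larval epicardium, SD, n = 3 each; edgeR log2 fold change -3.43, adjusted p = 0.000375). The peak of *myh7ba*, a heavy chain of slow and cardiac myosin, had 4.41, 0.872, 6.01 and 7.61 CPM after cryoinjury, against 33.5 and 49.6 CPM in tcf21 larval epicardium (log2 fold change -3.01 ± 0.46 (SE), adjusted p = 5.77e-06). Its RNA went the other way, with 1177 ± 177 CPM after cryoinjury against 7.14 ± 6.23 CPM in larval epicardium (SD, n = 3 each; edgeR log2 fold change 7.35, adjusted p = 3.67e-06). The cardiomyocyte markers *myl7* and *tnnt2a* had mean summed peak levels of 7.22 and 9.46 CPM after cryoinjury, against 6.92 and 5.05 CPM in tcf21 larval epicardium, and *vmhc* had no peak. RNA of all 3 was higher after cryoinjury, at 4381 ± 395 CPM for *myl7*, 3902 ± 516 CPM for *tnnt2a* and 4010.4 ± 2758 CPM for *vmhc*, against 264 ± 296, 65.7 ± 62.5 and 20.5 ± 22.9 CPM in larval epicardium (SD, n = 3 each). Their edgeR log2 fold changes were 4.05, 5.89 and 7.61 (adjusted p = 0.000198, 4.86e-06 and 4.76e-06 in that order), and their part in the *myh7ba* RNA difference was not tested. That of *smurf2*, a ubiquitin ligase that restrains TGF-beta signalling, at the end of *kpna2*, had 3.53, 5.23, 3.34 and 6.17 CPM after cryoinjury against 24.6 and 31.5 CPM in tcf21 larval epicardium (log2 fold change -2.54 ± 0.42 (SE), adjusted p = 2.53e-05).

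**Figure D5:**
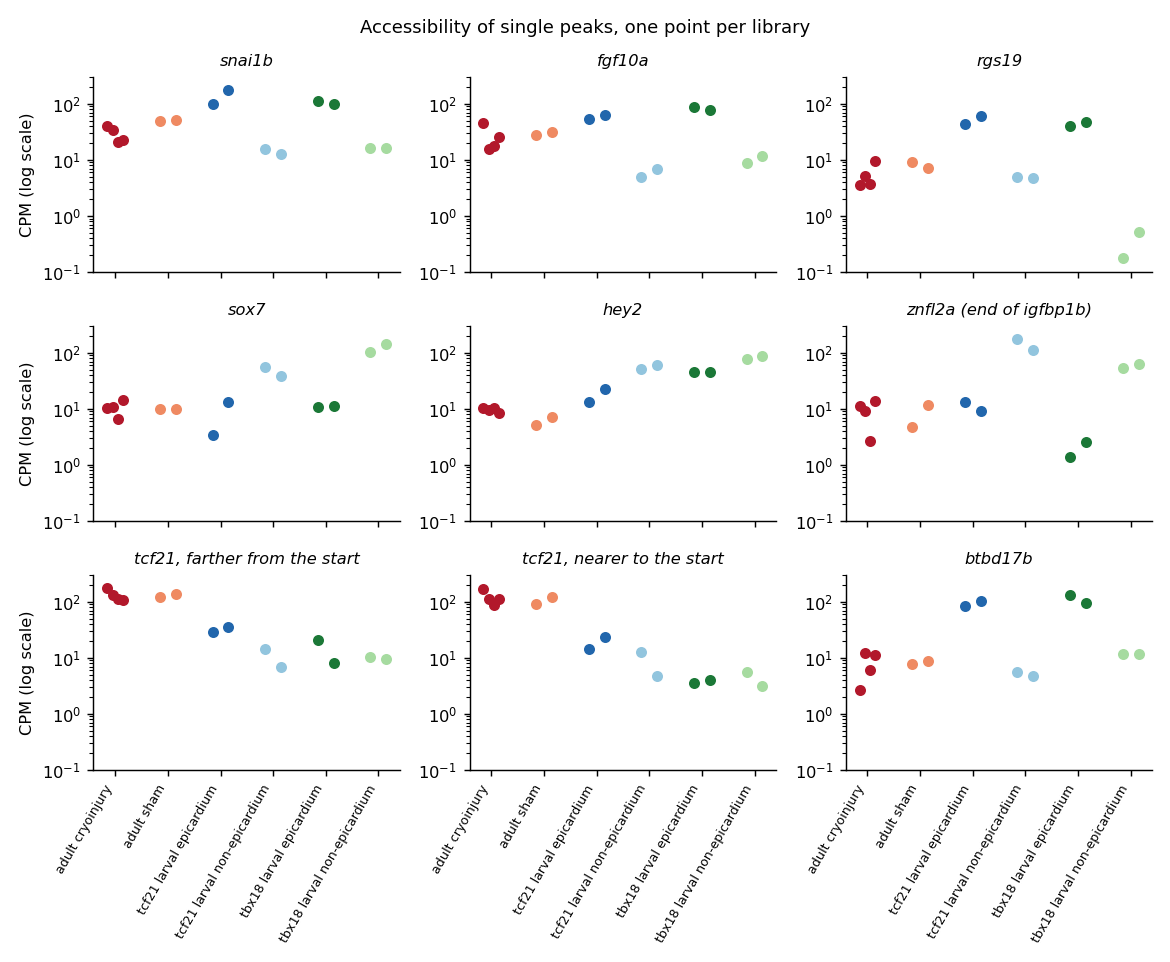
CPM per library (log axis) at 9 peaks at transcript ends in the 6 groups: *snai1b*, *fgf10a*, *rgs19*, *sox7*, *hey2*, *znfl2a* (end of *igfbp1b*), the farther and the nearer peak of *tcf21*, and *btbd17b*. Points are libraries; the 6 adult libraries lie above both tcf21 larval epicardium libraries at the *tcf21* peaks and below them at *btbd17b*, *rgs19* and *snai1b*.

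Cryoinjury and sham surgery could not be told apart at transcript ends. No peak was called by edgeR, and DESeq2 called 0 as well. At an unadjusted p under 0.05 there were 46 of 1651 peaks higher after cryoinjury and 62 lower, against 2012 higher and 2127 lower of 61883 over all peaks. At the adjusted threshold 1 peak in all 61883 (0.00162%) was called. The median log2 fold change was -0.03 at transcript ends and 0.01 over all peaks. The lowest adjusted p, 0.183, was at *tmem184bb*, with 19.4, 11.3, 19.4 and 15.8 CPM after cryoinjury against 45.7 and 55.8 CPM after sham surgery (-1.62 ± 0.35 on the log2 scale, SE). The cryoinjured libraries were all below both sham libraries there. Next by unadjusted p in that direction were *slc25a3b*, a mitochondrial phosphate carrier (-1.95 ± 0.64), and a 5S_rRNA copy on chromosome 25 (-1.70 ± 0.57), and in the other direction a 5S_rRNA copy on chromosome 4 (1.72 ± 0.61), *kctd15a* (1.65 ± 0.62) and *prkg1b*, a cGMP-dependent kinase (1.24 ± 0.48). Standard errors at these 6 peaks were 0.35 to 0.64.

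Each pathway list had few peaks at transcript ends, and the counts that follow are a description without a test. Over all peaks 13.2% were called in the tcf21 pair and 26.9% in the tbx18 pair. Against tcf21 larval epicardium 14% were called after cryoinjury and 7.64% after sham surgery. In lists this small, counts of 1 or 2 calls cannot be told from those shares. AP-1 and injury regulators had 12 peaks, of which 1 rose and 1 fell in tcf21 epicardium, none was called in the tbx18 pair, and after cryoinjury 1 was higher and 1 lower than in larval epicardium. The one that rose was at *socs3a*, a feedback inhibitor of cytokine signalling, with 11.2 and 22.5 CPM in tcf21 epicardium against 4.49 and 4.67 CPM in tcf21 non-epicardium (log2 fold change 1.84 ± 0.64 (SE), adjusted p = 0.0488). Its call was lost without epicardium library 2 (1.43, adjusted p = 0.273), non-epicardium library 1 (1.83, adjusted p = 0.241) or 2 (1.87, adjusted p = 0.0955), and with halved counts (2.0, adjusted p = 0.0631; 0.0323 to 0.273 over the alternatives). The one that fell was at *junba*, a subunit of AP-1, with 12.3 and 4.51 CPM in tcf21 epicardium against 28.4 and 32.7 CPM in tcf21 non-epicardium (log2 fold change -1.78 ± 0.55 (SE), adjusted p = 0.0241). Its RNA was higher in epicardium (edgeR log2 fold change 1.95, adjusted p = 0.0157). At *egr1*, an immediate early gene, the peak had 16.8, 12.6, 12 and 7.82 CPM after cryoinjury against 41.4 and 18.0 CPM in tcf21 larval epicardium (log2 fold change -1.36 ± 0.40 (SE), adjusted p = 0.0168), and 119 and 119.6 CPM in tbx18 epicardium. At *nfkbiab*, an inhibitor of NF-kappa-B, it had 7.94, 27.9, 29.7 and 12.1 CPM after cryoinjury against 4.47 and 4.51 CPM in tcf21 larval epicardium (log2 fold change 2.13 ± 0.72 (SE), adjusted p = 0.0398). RNA after cryoinjury was lower than in larval epicardium at *nfkbiab* (edgeR log2 fold change -2.39, adjusted p = 0.00247), against the direction of its peak. At *egr1* it was lower like its peak (-5.04, adjusted p = 4.47e-06). The groups did not overlap at any of the 3 peaks. The calls were lost at *junba* without tcf21 epicardium library 2 (-1.17, adjusted p = 0.268) or non-epicardium library 1 (-1.86, adjusted p = 0.0932) or 2 (-1.69, adjusted p = 0.0642), and with halved counts (-1.52, adjusted p = 0.0764). The *egr1* call was lost without larval library 1 (-0.66, adjusted p = 0.516) or cryoinjury library 4 (-1.17, adjusted p = 0.0515) and with total count scaling (-1.05, adjusted p = 0.0528). The *nfkbiab* call was lost without larval library 1 (2.08, adjusted p = 0.232) or 2 (2.04, adjusted p = 0.213) or cryoinjury library 2 (1.92, adjusted p = 0.0907) or 3 (1.86, adjusted p = 0.108), and with a GC offset (1.85, adjusted p = 0.0823), halved counts (2.0, adjusted p = 0.0747) or DESeq2 (2.04, adjusted p = 0.0607). Over the alternatives their adjusted p ran over 0.0207 to 0.268, 0.00311 to 0.516 and 0.0137 to 0.232.

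The Wnt and Notch list had 8 peaks, of which 2 were lower in tcf21 epicardium (*hey2* and *tcf7l1a*) and, in the tbx18 pair, 2 higher (both of *wnt5b*) and 2 lower (*notch1a* and *tcf7l1a*, a repressor among the Tcf factors). In sham adults *hey2* was lower than in tcf21 larval epicardium (5.12 and 7.25 CPM against 13.4 and 22.5 CPM; log2 fold change -1.55 ± 0.51 (SE), adjusted p = 0.0494). The TGF-beta and BMP list also had 8, with none called in either larval pair, 1 lower after cryoinjury (*smurf2*) and, after sham surgery, 1 lower (*smurf2*) and 1 higher (*id3*). Hippo and retinoic acid genes had 5, of which 1 was lower with tcf21 (*rbp5*) and, with tbx18, 1 higher (*rdh10a*) and 2 lower (*rbp5*, a retinol-binding protein gene, and *rxraa*, a retinoid X receptor gene). FGF and PDGF genes had 2, 1 of them called (*fgf10a*). Matrix genes had 3 peaks, histone genes 3 and hox genes 1, with no call in any comparison, and none was annotated to a cardiomyocyte gene of the list. Ribosomal protein and ribosomal S6 kinase genes, matched by name, had 10 peaks, 1 lower in tbx18 epicardium (*rpl36a*, 0.805 and 2.05 CPM against 8.63 and 19.5 CPM in tbx18 non-epicardium; log2 fold change -3.40 ± 0.74 (SE), adjusted p = 0.000509) and 1 higher in sham adults than in tcf21 larval epicardium (*rps19*, 2.78 ± 0.89, SE, adjusted p = 0.0458). The median log2 fold change of the Wnt and Notch list was -0.94 in the tcf21 pair and -0.77 in the tbx18 pair, and that of the TGF-beta and BMP list -0.07 and -0.27, beside -0.01 and -0.16 over all peaks. RNA of some of these genes went the other way from the peak. By edgeR it was higher in larval epicardium than in non-epicardium at *tcf7l1a* (log2 fold change 2.39, adjusted p = 0.00771). After sham surgery it was higher than in larval epicardium at *hey2* (4.69, adjusted p = 0.00068) and *smurf2* (2.24, adjusted p = 0.0115), and lower at *id3* (-2.93, adjusted p = 0.00199). It shared the sign at others, such as *hey2* between larval populations (-3.35, adjusted p = 0.00762).

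Several of the peak calls in these lists rested on single libraries. In the tcf21 pair *tcf7l1a* was lost without epicardium library 1 (-2.03, adjusted p = 0.141; 0.00307 to 0.141 over the alternatives). The *rbp5* call was lost without epicardium library 1 (-2.2, adjusted p = 0.29) or 2 (-3.54, adjusted p = 0.108) or non-epicardium library 1 (-2.52, adjusted p = 0.222), and with halved counts (-3.46, adjusted p = 0.072) or DESeq2 (-2.84, adjusted p = 0.065; 0.0149 to 0.29). In the tbx18 pair *tcf7l1a* was lost without any of the 4 libraries (0.00543 to 0.172) and *rxraa* without epicardium library 2 (-2.31, adjusted p = 0.0652; 0.00349 to 0.0652). In the comparison of sham adults with larvae *smurf2* was lost without sham library 1 (-1.94, adjusted p = 0.0926; 0.000828 to 0.0926), *hey2* without either sham library or larval library 2 (0.0275 to 0.275), and *id3* and *rps19* without any of the 4 libraries (0.0128 to 0.193 and 0.0294 to 0.306). These 3 calls were also lost with a GC offset, that of *hey2* with total count scaling and those of *id3* and *rps19* with DESeq2 size factors.

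The most open peaks at transcript ends belonged to small RNA and clone-named genes. A 5_8S_rRNA gene on chromosome 5 (chr5:825003-825503), which encodes a part of the large ribosomal subunit, had 851, 529, 579 and 208 CPM after cryoinjury, 612 and 857 CPM after sham surgery, 2850.4 and 4190.1 CPM in tcf21 epicardium, 1211 and 1519 CPM in tcf21 non-epicardium, 1153 and 832 CPM in tbx18 epicardium and 1442 and 925 CPM in tbx18 non-epicardium. Both tcf21 epicardium libraries were above every other library. It was lower after cryoinjury than in tcf21 larval epicardium (log2 fold change -2.70 ± 0.39 (SE), adjusted p = 2.9e-06). The difference within the tcf21 pair (log2 fold change 1.37 ± 0.48 (SE), adjusted p = 0.0498) was lost without epicardium library 2 (1.18, adjusted p = 0.178) or non-epicardium library 1 (1.23, adjusted p = 0.25) or 2 (1.54, adjusted p = 0.0792), and with a GC offset (1.21, adjusted p = 0.0564), halved counts (1.37, adjusted p = 0.0532) or the compared groups alone (1.30, adjusted p = 0.316; 0.0136 to 0.316 over the alternatives). Of the 10 peaks with the highest mean level, 6 were at copies of the U2 gene, which encodes a small nuclear RNA of the spliceosome, on chromosome 2, and some of the copies held more than 1 of them. Small RNA genes took 14.4% of the reads at transcript ends after cryoinjury, 15.2% after sham surgery, 25.3% in tcf21 epicardium, 22.0% in tcf21 non-epicardium, 14.1% in tbx18 epicardium and 15.1% in tbx18 non-epicardium. The 10 deepest peaks of a library alone took between 6.41% and 32.7% of them.

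The leading U2 copy (chr2:15040155-15041582) spread widely within groups: 814, 357, 258 and 126 CPM after cryoinjury, 490.0 and 295 CPM after sham surgery, 666 and 1165 CPM in tcf21 epicardium, 309.8 and 1480.4 CPM in tcf21 non-epicardium, 149.5 and 57.5 CPM in tbx18 epicardium and 217 and 90.1 CPM in tbx18 non-epicardium. The 2 tcf21 non-epicardium libraries bracketed both tcf21 epicardium ones, and the peak passed the test in no comparison. Peaks of the *pimr* family were low in the tbx18 line. Their median was 25.3 CPM after cryoinjury, 25.9 CPM after sham surgery, 36.6 CPM in tcf21 epicardium, 21.6 CPM in tcf21 non-epicardium, 2.12 CPM in tbx18 epicardium and 6.14 CPM in tbx18 non-epicardium. With tcf21 none of the 27 was called, and with tbx18 12 were lower in epicardium. A peak of the clone-named gene *AL935128.2* (chr7:8818165-8818665) had 63.7 and 51.1 CPM in tcf21 epicardium against 31.4 and 35 CPM in tcf21 non-epicardium, and 1.41 and 0.513 CPM in tbx18 epicardium against 17.3 and 3.69 CPM in tbx18 non-epicardium (interaction 4.10 ± 0.82 on the log2 scale, SE, edgeR adjusted p = 0.0094). The interaction call was lost without tcf21 epicardium library 1 (3.88, adjusted p = 0.0667), tcf21 non-epicardium library 1 (3.93, adjusted p = 0.0583) or tbx18 non-epicardium library 1 (2.47, adjusted p = 0.303; 0.00132 to 0.303 over the alternatives). The tbx18 libraries were all below the tcf21 ones. Near-identical copies may share reads, so these levels may not belong to the copy named.

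The 3 genes with 3 peaks at transcript ends each had few calls. At *BX908796.1* the 3 peaks were called in no comparison, and at *si:ch211-132b12.8* likewise. At *BX465864.2* the peak chr23:35865283-35865783, at the end of *rarga*, a retinoic acid receptor gene, was higher in tbx18 epicardium (14.1 and 17.4 CPM against 4.5 and 4.21 CPM in tbx18 non-epicardium; log2 fold change 1.82 ± 0.53 (SE), adjusted p = 0.00844), and the other 2 were not called. That call was lost without tbx18 non-epicardium library 1 (1.88, adjusted p = 0.0796; 0.00375 to 0.0796 over the alternatives).

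RNA of the annotated genes, measured in 11 libraries, is a readout that the choice of peaks did not use. Of 1571 annotated genes 1034 could be tested. Between larval epicardium and non-epicardium 84 were higher and 86 lower by edgeR (16.4% in all). Over all genes 13.4% were called, 5.68% higher and 7.77% lower. After cryoinjury 144 were higher and 272 lower than in larval epicardium (40.2%), against 38.1% of all genes, 12.1% higher and 26% lower. After sham surgery 137 were higher and 284 lower than in larval epicardium (40.7%), against 37.2% of all genes, 11.5% higher and 25.6% lower. Between cryoinjury and sham surgery 1 was higher and 1 lower (0.193%), against 0.318% of all genes, 0.227% higher and 0.0916% lower. In the adult to larval comparisons purification differs as well as stage and construct.

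Peak and RNA differences shared their sign in part. Of the peaks higher in tcf21 epicardium, 56 had RNA of their annotated gene in the test, with a positive RNA difference at 41 (73.2%), called higher at 8 and lower at 3. Among promoter peaks higher in tcf21 epicardium the RNA difference was positive at 92.4%, and over all peaks at 80.7%. Of those lower in tcf21 epicardium, 71 had RNA, negative at 43 (60.6%) and called lower at 17 and higher at 3, against 72.3% negative for promoter peaks and 58.2% for all peaks. With tbx18 the sign was shared at 68.2% of 132 higher peaks and 47.9% of 165 lower ones, against 77.0% and 42.7% over all peaks; the RNA came from tcf21 larvae. For cryoinjured adults against larvae it was shared at 45.8% of 48 higher and 56.0% of 84 lower peaks, against 54.4% and 54.1% over all peaks. Over all genes tested the median RNA log2 fold change was 0.32 between larval populations and -0.59 for cryoinjury against larvae. Positive signs thus prevailed in the former and negative ones in the latter whatever the peak, and the shares include that shift. Genes with several peaks enter more than once, and no test was run on these shares.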

How the data were processed

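The authors' ATAC counts were deposited as raw read counts per peak over 1 peak set shared by the 14 libraries, with 1 as the lowest value, and RNA counts per gene for 11 libraries; the GC content of each peak is a fraction in the authors' deposited annotation. The submitters' processing notes name Bowtie 1.2.3, SAMtools 1.10, MACS2 2.2.7.1, HOMER, DiffBind 3.0.13, STAR 2.7.3a, featureCounts, edgeR 3.32.1 and the build GRCz10, without roles or parameters. Per the labels' protocols, DNA was tagged with Tn5 and amplified, and counts are not of unique molecules, so the floor of 3 counts covers counting error only. The deposited tables also hold 14 columns of FPKM values per library, which were not used here.

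Counts were tested with edgeR 4.0.16 (R 4.3.3): TMM scaling, filterByExpr with a minimum count of 10 and minimum total of 15, 1 quasi-likelihood fit over all ATAC libraries and 1 over all RNA libraries, and Benjamini-Hochberg adjustment over all peaks or genes, with calls at an adjusted p under 0.05. Levels are CPM from TMM-scaled library sizes. The fit was tested on simulated data. Alternatives were DESeq2 1.42.0 and its size factors, total-count scaling, no filter, a GC offset, a replicate block, halved counts, the compared groups alone, and each library left out in turn. Shares and class levels were compared by exact two-sided permutation over libraries (scipy 1.17.1), adjusted over the classes.

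Members and gene lists were chosen with earlier results of these data known. Single peaks were named by rule: the 10 with the highest mean CPM; for the 2 larval comparisons the 10 largest called changes in each direction, and 8 for the adult to larval ones, where the higher group averaged 10 CPM or more, the libraries of the groups did not overlap and the gene was not clone-named; 5 in each direction for the difference between reporters; the 3 lowest p-values in each direction between cryoinjury and sham; called genes of the lists; and up to 5 genes with the most peaks. This named 108 peaks, of which part are described. Columns of larval RNA could be matched to their group, not to a replicate. No sequence is shown, since no genome was used here.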

Additional observations from a re-analysis of the deposited data

Results flagged for a closer look

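Over the 4 cryoinjury libraries, 5 of 109 levels tested had a highest or lowest library set apart from the others, with a gap to its nearest neighbour above 0.829 of the whole range; chance gives about 1 in 20 groups. The gap was 0.903 of the range at *gxylt1b* (5.29 to 14.4 CPM), 0.906 at *uckl1a* (3.01 to 15.3 CPM), 0.831 at *ANO7* (1.76 to 5.67 CPM), 0.918 at *rpl36a* (6.38 to 14.1 CPM) and 0.965 at 1 peak of *si:ch211-132b12.8* (7.20 to 13.2 CPM).

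The epicardium effect differed between the tcf21 and tbx18 lines by edgeR's interaction test at 12 named peaks. The tcf21 effect minus the tbx18 effect, on the log2 scale, was 4.58 at *c1qtnf1* (adjusted p = 0.00974), 4.56 at *syne1b* (0.0348), 4.26 at *TMEM184B* (2 of 3) (0.0184), 4.10 at *AL935128.2* (0.0094), 3.93 at *rras2* (0.0472), 3.82 at *ANO7* (0.0493) and 2.82 at *tmem184bb* (0.0382). It was negative at *cfap126* (-3.89, 0.0484), *ubtf* (-3.73, 0.0369), *ITPRIPL2* (-3.50, 0.038), *zdhhc18b* (-3.45, 0.0458) and *calca* (-3.38, 0.0382). Each of these calls was lost without at least 1 of the 8 larval libraries.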

How the results depend on the processing

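Each result that answers a comparison was recomputed under each alternative, which gave 142 values: 106 kept their direction and side of the threshold (counts: stayed within 1.5 times) and 36 did not. The share of reads at transcript ends differed by -0.0754 to 0.516 percentage points between larval epicardium and non-epicardium with 1 library left out. Between cryoinjury and sham it differed by -0.0877 to 0.0616 with 1 library left out and by 0.00225 without the top 1% of peaks. Between adult and larval epicardium it differed by -0.841 to -0.610 with 1 library left out, and by -0.0827 without the top 1% of peaks. The difference from intron peaks passed the exact test, which ignores the grouping of libraries, only when matched on GC (0.15, adjusted p = 0.0231). Calls with 1 library left out numbered 57 to 142 for the tcf21 pair, 232 to 357 for the tbx18 pair, 1 to 72 for the difference between reporters, 116 to 243 for cryoinjury against larvae, 46 to 72 for sham against larvae and 0 for cryoinjury against sham. For the difference between reporters they were 29 with counts halved and 5 with the compared groups alone. RNA calls between cryoinjury and sham were 7 with DESeq2 size factors, against 2. Without small RNA, *pimr* and clone-named genes, an alternative chosen after seeing the data, 107 calls remained in number for the tcf21 pair, 253 for tbx18, 18 for the difference between reporters, 112 for cryoinjury against larvae and 71 for sham against larvae. This alternative counts fewer peaks; the cause of the other changes was not tested.

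Whether the replicate numbers pair the samples could not be decided. Deviations of same-numbered libraries correlated at 0.0511 (tcf21), 0.121 (tbx18), -0.00776 and 0.0501 (cryoinjury and sham), -0.0404 and -0.00342 (cryoinjury and larvae) and -0.0198 (sham and larvae). In groups of 2 libraries the 2 deviations mirror each other, so these correlations cannot exclude pairing. Depth went by number with tbx18, at 5343957 and 6248597 reads in the libraries numbered 1 and 2051230 and 2154839 in those numbered 2. With the replicate block calls numbered 176, 437, 72, 0, 134 and 162 for the tcf21 pair, the tbx18 pair, the difference between reporters, cryoinjury against sham, cryoinjury against larvae and sham against larvae, and 93 for cryoinjury against larvae with the block and a GC offset. In the block, cryoinjury libraries 3 and 4, without a sham library of the same number, each had a term of their own. The cryoinjury mean there rested on libraries 1 and 2 alone, so fewer libraries and blocking cannot be told apart. The block also ended calls at *egr1* and *nfkbiab* (cryoinjury against larvae), *socs3a* and *elmo2* (tcf21 pair), and *hey2* and *rps19* (sham against larvae). The 199 single-peak results that were called kept their call in 2235 values under an alternative, lost it in 479 and changed sign in 1. This was *syne1b* in the tbx18 pair, which ran between -2.84 and 0.39 with 1 library left out, 0.39 being without tbx18 non-epicardium library 1 (adjusted p = 0.902). Depth limits tcf21 epicardium library 2 most, where a floor of 3 counts is 4.51 CPM.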
